A study of Mus musculus with 6 samples.

Results

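Collagens are the main structural proteins of the extracellular matrix, and each collagen molecule is wound from 3 chains that are encoded by separate genes or by 1 gene used repeatedly. The expression of collagen chain genes was compared in spleens of adult female mice of 2 genotypes, 3 (AKR/J x FVB/NJ)F1 animals (the AKR/J F1 group) and 3 (DBA/2J x FVB/NJ)F1 animals (the DBA/2J F1 group). The groups thus have an FVB/NJ parent in common, no treatment is named, and each RNA was read on a separate Affymetrix array. The question of the series is how the genotypes differ in spleen transcripts at baseline. Every animal is a first-generation hybrid, so each gene is read from 1 FVB/NJ allele and 1 allele of the other strain together, and the age is given only as adult. Members were all genes whose symbol is Col, a number, a and a number, taken from probe sets that the platform annotation pairs with exactly 1 symbol. These were 42 of 18193 genes, measured by 82 of 45037 probe sets. For each gene the probe set with the highest mean over the 6 arrays was used. By the class of collagen, 11 chains were fibrillar, 8 belonged to basement membranes and 23 were of other kinds.

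In a spleen, fibroblastic reticular cells and the cells of the capsule, trabeculae and vessel walls are the usual makers of collagen. Type I and type III collagen form the fibres of capsule, trabeculae and reticular network, and type V sets how such fibrils assemble. Type IV collagen forms the sheet of basement membranes under endothelium and around smooth muscle. New chains are hydroxylated and folded in the endoplasmic reticulum, trimmed and crosslinked after secretion, bound by integrins and discoidin domain receptors on cells, and taken apart by matrix metalloproteinases.

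The sequences shown here bear on chains that passed the test or that lie next to each other in the genome, and come from RefSeq windows of build GRCm38.p6, which held 33 of the 42 genes. That build is the C57BL/6J reference and not the sequence of any parent strain of these crosses. The genes Col4a1 and Col4a2, whose products join in the common type IV molecule, start head to head. Their annotated starts bound a stretch of 22 bases at chr8:11312805-11312826, given 5′ to 3′ on the strand of each gene (minus for Col4a1, plus for Col4a2), with GC boxes in capitals.
Col4a1: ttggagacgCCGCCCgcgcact
Col4a2: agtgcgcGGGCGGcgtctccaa
The 250 bases before the annotated start are given for Col1a2 (chr6:4505368-4505617, plus strand), the brightest fibrillar probe set, and for 3 chains that passed the test, Col23a1 (chr11:51289670-51289919, plus strand), Col6a3 (chr1:90843972-90844221, minus strand) and Col4a6 (chrX:141474077-141474326, minus strand). Capitals mark 3 motifs on either strand: the GC box with the letters GGGCGG, a box that reads CCAAT, and the TATA box with the letters TATAAA.
Col1a2: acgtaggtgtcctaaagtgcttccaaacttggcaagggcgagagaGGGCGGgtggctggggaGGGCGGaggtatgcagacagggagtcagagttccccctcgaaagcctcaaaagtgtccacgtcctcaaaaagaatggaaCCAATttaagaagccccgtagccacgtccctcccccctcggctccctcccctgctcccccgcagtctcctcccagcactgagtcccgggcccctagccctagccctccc
Col23a1: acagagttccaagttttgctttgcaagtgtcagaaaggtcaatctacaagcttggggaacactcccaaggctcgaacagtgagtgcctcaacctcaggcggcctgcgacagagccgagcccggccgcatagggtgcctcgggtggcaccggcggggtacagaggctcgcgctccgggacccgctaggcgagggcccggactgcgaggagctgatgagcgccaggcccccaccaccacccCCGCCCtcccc
Col6a3: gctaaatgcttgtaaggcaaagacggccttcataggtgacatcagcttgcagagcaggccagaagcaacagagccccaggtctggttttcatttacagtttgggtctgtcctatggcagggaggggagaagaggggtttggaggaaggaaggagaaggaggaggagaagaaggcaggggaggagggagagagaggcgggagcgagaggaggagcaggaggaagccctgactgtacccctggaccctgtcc
Col4a6: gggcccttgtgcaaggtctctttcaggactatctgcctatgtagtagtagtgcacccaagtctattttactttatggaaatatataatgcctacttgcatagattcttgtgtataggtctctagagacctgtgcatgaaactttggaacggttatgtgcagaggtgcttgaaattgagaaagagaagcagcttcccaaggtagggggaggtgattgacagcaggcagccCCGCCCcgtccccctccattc
In these 250-base windows a GC box lay in 21 of 36 windows of collagen chains (58.3%) and in 32.7% of all 32851 windows. The CCAAT box lay in 13 of the 36 windows (36.1%) against 33.8% of all windows, and the TATA box in 5 (13.9%) against 12.4%. The Col6a3 window held none of these letters.

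Array medians lay between 5.05 and 5.10 on the deposited log2 scale and values between 1.81 and 14.56. The SD of the values of an array was 2.32 to 2.34 in the AKR/J F1 group and 2.26 to 2.28 in the DBA/2J F1 group. The files hold no detection calls, and the number of arrays limits how precise the values are. The labels name 1 spleen per array, and p-values measure the spread between these samples. Lymphoid markers of spleen were bright, with 5 of the 6 listed measured and array means of 10.51 to 10.57 in the AKR/J F1 group and 10.08 to 10.20 in the DBA/2J F1 group. Pancreatic acinar markers, which a spleen should lack, had array means of 13.90 to 13.94 in the AKR/J F1 group and of 13.43, 13.76 and 6.46 in replicates 1, 2 and 3 of the DBA/2J F1 group. Replicate 3 of the DBA/2J F1 group thus stood apart. Erythroid markers had array means of 7.47 to 8.09 in the AKR/J F1 group and 9.26 to 10.04 in the DBA/2J F1 group. The part of these differences in the collagen values was not tested. Fits with an array left out or with the acinar mean as a covariate are given below. That mean mainly sets replicate 3 of the DBA/2J F1 group apart, so the covariate cannot separate acinar RNA from that array. All differences below are the AKR/J F1 group minus the DBA/2J F1 group in log2 units. In bulk tissue, fewer cells of a type and less RNA per cell cannot be told apart.

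Of the 42 chains, 4 were higher in the AKR/J F1 group, 5 were higher in the DBA/2J F1 group and 33 did not pass an adjusted p of 0.05 in limma. Higher in the AKR/J F1 group were Col4a1, Col4a2, Col5a2 and Col23a1, and higher in the DBA/2J F1 group were Col6a3, Col22a1, Col9a3, Col4a6 and Col4a3. The 9 calls are 21.4% of the chains, beside 17.2% of all 18193 genes (8.91% higher in the AKR/J F1 group and 8.31% in the DBA/2J F1 group). The arrays of the groups did not overlap for 16 chains (38.1%), beside 41.2% of all genes, with the AKR/J F1 arrays above in 7 chains (22% of all genes) and the DBA/2J F1 arrays above in 9 (19.2% of all genes). The median difference was -0.07 for the chains and -0.01 for all genes, and the chains ran from -0.71 to 0.65. The share of chains called was thus near that of all genes. With each of the 6 arrays left out in turn, each of the 9 chains was lost in at least 3 of the fits, and the chain count was 12 without replicate 1 of the DBA/2J F1 group and 0 to 2 without any 1 of the others. The share of all genes called moved with it, from 19.0% without that array to between 3.57% and 6.37% without the others.

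**Figure D1:**
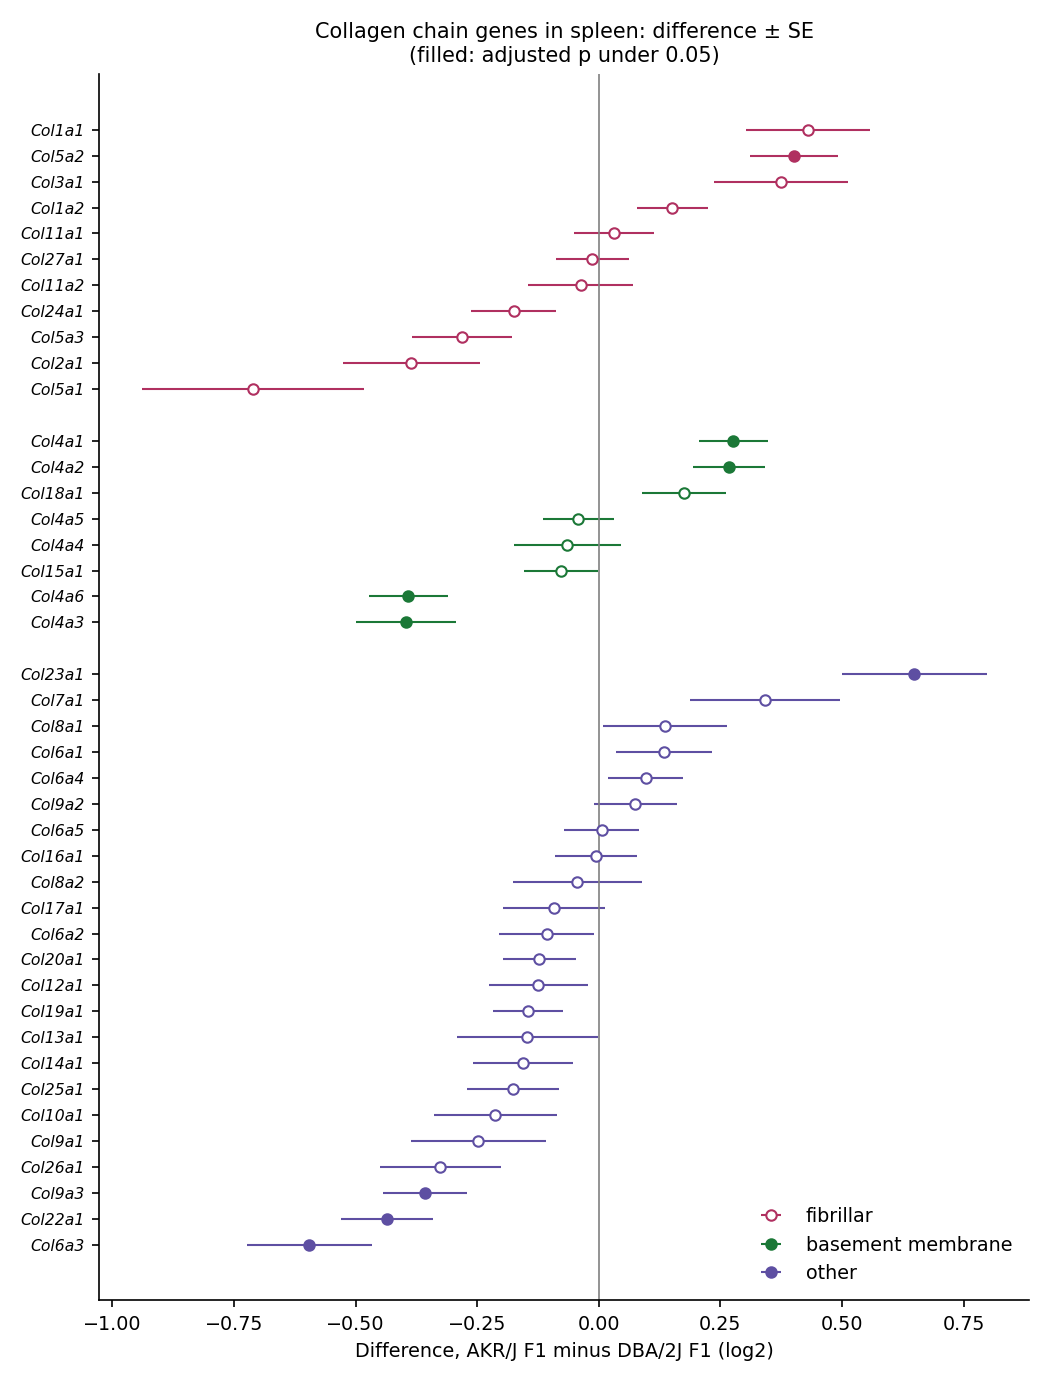
Difference between the groups (AKR/J F1 minus DBA/2J F1, log2, horizontal axis) for each of the 42 collagen chain genes, grouped by class, with bars of 1 SE and filled points past an adjusted p of 0.05 in limma. Differences run from -0.71 for Col5a1 to 0.65 for Col23a1, with 4 filled points to the right of 0 and 5 to the left.

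The sign of a chain's difference went with its signal level, as it did for all genes. Of 15 chains above the median level of all genes (6.14), 9 had a positive difference and 6 a negative one, with a median of 0.13. For the 27 chains at or below it, 6 were positive and 21 negative, with a median of -0.12. All genes showed the same split, with a median of 0.11 over the 9097 genes above that level and -0.10 over the 9096 others. With all genes ranked by level into 10 bins of like size, the median difference went from -0.16 in bin 3 to 0.12 in bin 9. With quantile normalization, which gives all arrays the same distribution of values, 3 chains passed, namely Col6a3, Col22a1 and Col23a1, beside 10.2% of all genes.

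**Figure D2:**
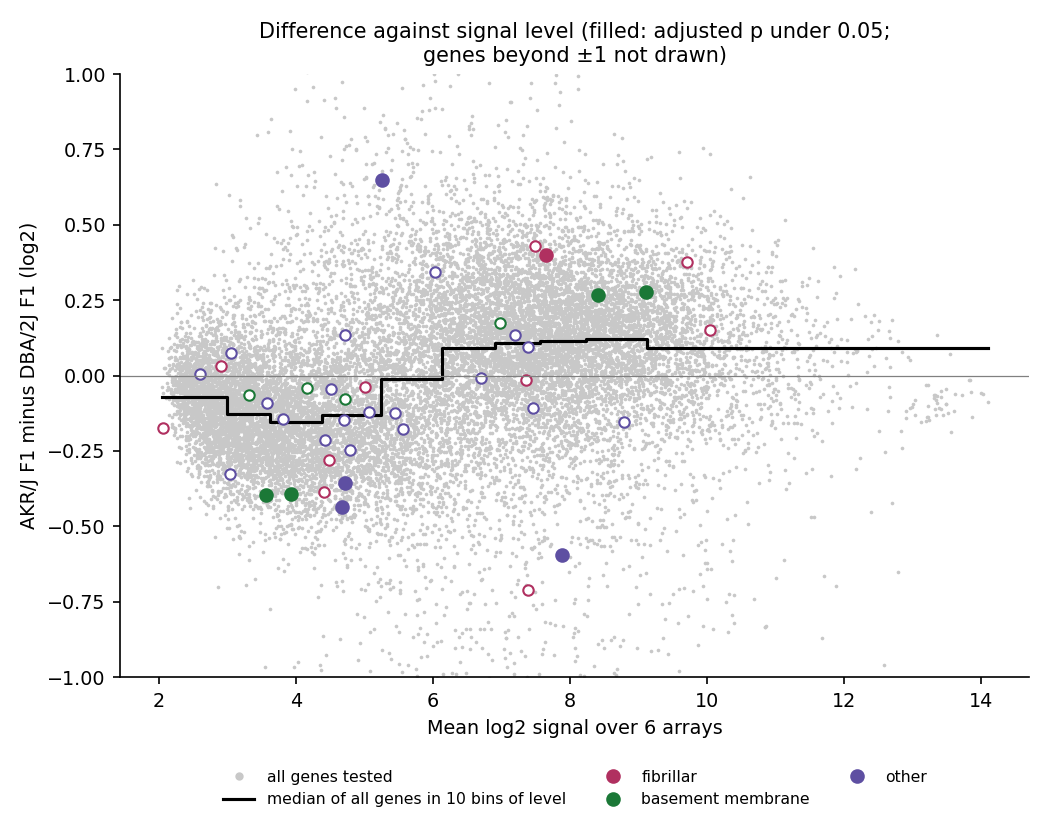
Difference between the groups (log2, vertical axis) against the mean log2 signal over 6 arrays (horizontal axis) for all 18193 genes in grey and the collagen chains in colour by class, filled where the adjusted p was under 0.05. The black line is the median of all genes in each of 10 bins of level, which lies below 0 in the 5 dimmer bins and above 0 in the 5 brighter ones.

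Fibrillar chains form the banded fibres that give a tissue its strength. Of 11, 1 was higher in the AKR/J F1 group and 0 were higher in the DBA/2J F1 group (9.09%, beside 17.2% of all genes). An unadjusted p under 0.05 in limma was found for 6, 3 in each direction, beside 6587 of all 18193 genes (median difference -0.01). Chains of types I and III, which make up most of the fibre mass, did not pass. Col1a2, the second chain of type I collagen, stood at 10.05, 10.16 and 10.15 in replicates 1, 2 and 3 of the AKR/J F1 group and at 9.97, 9.99 and 9.94 in those of the DBA/2J F1 group. Its groups did not overlap, and the difference was 0.15 ± 0.07 (SE; adjusted p = 0.174).

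Col1a1, the first chain of the same type, stood at 7.65, 7.75 and 7.74 in the AKR/J F1 group and 7.58, 7.16 and 7.10 in the DBA/2J F1 group. Replicate 1 of the DBA/2J F1 group lay close under the AKR/J F1 arrays and the other two well below, for a difference of 0.43 ± 0.13 (adjusted p = 0.0523). Col3a1, which encodes the chain of reticular fibres, followed the same order of arrays within the DBA/2J F1 group. It had 9.84, 9.90 and 9.95 in the AKR/J F1 group and 9.86, 9.37 and 9.34 in the DBA/2J F1 group. Here replicate 1 of the DBA/2J F1 group fell inside the range of the AKR/J F1 arrays, and the difference was 0.37 ± 0.14 (adjusted p = 0.0938). Without that array Col1a1 and Col3a1 both passed, at 0.58 (adjusted p = 0.00609) and 0.54 (adjusted p = 0.00714). Without any other single array neither passed, with adjusted p in limma up to 0.146 for Col1a1 and 0.242 for Col3a1.

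Type V collagen gave differences of opposite sign between its chains. Col5a2, which encodes a chain of the common type V molecule, was higher in the AKR/J F1 group. Its values were 7.81, 7.85 and 7.92 there and 7.61, 7.36 and 7.41 in the DBA/2J F1 group, so that all 3 AKR/J F1 arrays lay above the others (0.40 ± 0.09, adjusted p = 0.0260). With any 1 array left out the adjusted p of Col5a2 was 0.0105 to 0.0833, and under 0.05 only without replicate 1 of the DBA/2J F1 group. Its second probe set differed by 0.15 ± 0.09, with groups that overlapped, and did not pass. On the mean of both probe sets Col5a2 differed by 0.28 and passed (adjusted p = 0.0447 in limma). The median gene of its level bin differed by 0.11 (bin 8), and after quantile normalization Col5a2 differed by 0.31 and did not pass (adjusted p = 0.0810).

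Col5a1, its partner chain, stood at 6.75, 7.36 and 6.99 in the AKR/J F1 group and at 7.25, 7.89 and 8.09 in the DBA/2J F1 group. The spread within each group was the widest among the fibrillar chains (SD 0.31 and 0.44, n = 3 each), 1 AKR/J F1 array lay above 1 DBA/2J F1 array, and the difference of -0.71 ± 0.23 did not pass (adjusted p = 0.0658). Its other probe sets gave the same picture at lower signal: -0.76 ± 0.20 and -0.76 ± 0.20, both with groups that did not overlap. Adjusted over all 45037 probe sets, these 2 passed at 0.0490 and 0.0498, where 10.4% of all probe sets passed. Col5a3, a less widespread chain of the type, had 4.18, 4.43 and 4.40 against 4.76, 4.60 and 4.50 (-0.28 ± 0.10, adjusted p = 0.0907). Whether the chains of type V differ from each other in their response to genotype was not tested. Beside Col5a1, the erythroid marker means were 7.93, 8.09 and 7.47 in the AKR/J F1 group and 9.26, 9.87 and 10.04 in the DBA/2J F1 group. In both measures replicate 1 was the lowest of the DBA/2J F1 arrays and replicate 2 the highest of the AKR/J F1 arrays. The lowest AKR/J F1 array was replicate 1 for Col5a1 and replicate 3 for the erythroid means. The relation of the 2 measures was not tested.

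**Figure D3:**
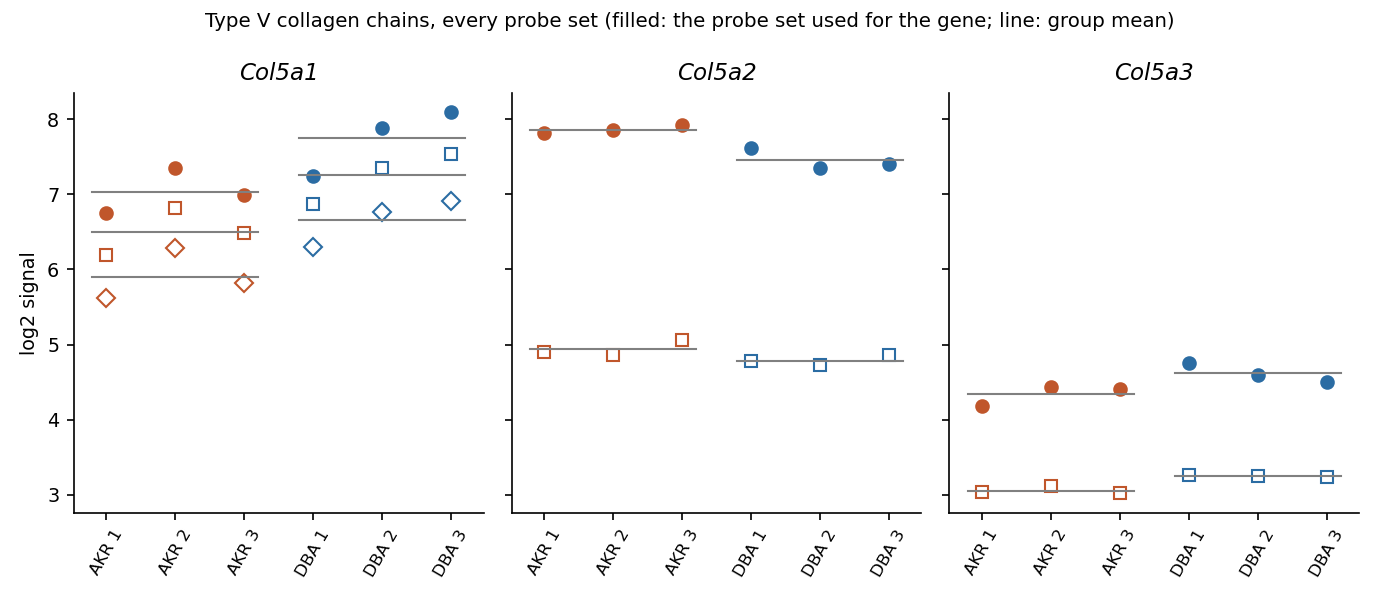
The log2 signal (vertical axis) of every probe set of the type V chains Col5a1, Col5a2 and Col5a3 in each of the 6 arrays (horizontal axis), with group means as lines, filled symbols for the probe set used for the gene and a symbol shape for each probe set. All 3 Col5a1 probe sets are higher on average in the DBA/2J F1 group, and both Col5a2 probe sets are higher on average in the AKR/J F1 group.

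The remaining fibrillar chains gave no call. Col27a1 had a clear signal (mean 7.37) and a difference of -0.01 ± 0.07. The cartilage chains Col2a1, Col11a1 and Col11a2 had means of 4.41, 2.90 and 5.01, with differences of -0.39, 0.03 and -0.04. Col24a1 was among the dimmest genes of the array (mean 2.06, difference -0.17).

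Among the 8 basement membrane chains, 2 were higher in the AKR/J F1 group and 2 in the DBA/2J F1 group, beside 8.91% and 8.31% of all genes (median difference -0.05). Col4a1, a chain of the type IV collagen found in nearly all basement membranes, stood at 9.234, 9.263 and 9.255 in the AKR/J F1 group and 9.004, 8.909 and 9.009 in the DBA/2J F1 group. The AKR/J F1 arrays differed by little among themselves and all lay above the DBA/2J F1 arrays, for 9.25 ± 0.01 against 8.97 ± 0.06 (mean ± SD, n = 3 each) and a difference of 0.28 ± 0.07 (adjusted p = 0.0373).

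Col4a2, its partner in the same molecule, had 8.50, 8.55 and 8.58 in the AKR/J F1 group and 8.35, 8.25 and 8.23 in the DBA/2J F1 group. These groups did not overlap either, and the difference of 0.27 ± 0.07 (adjusted p = 0.0445) was close to that of Col4a1. These are the genes whose starts lie on the 22 bases printed above. The second Col4a1 probe set differed by 0.17 ± 0.10, with groups that overlapped, and on the mean of both Col4a1 differed by 0.22 (adjusted p = 0.0785). Both genes are bright, where the median of all genes was itself positive (0.12 in bin 9). After quantile normalization they differed by 0.19 (Col4a1, adjusted p = 0.127) and 0.19 (Col4a2, adjusted p = 0.167). With 1 array left out the adjusted p was 0.0429 to 0.111 for Col4a1 and 0.0360 to 0.120 for Col4a2, under 0.05 only without replicate 1 of the DBA/2J F1 group.

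The chains of the specialised type IV molecules were dim throughout. Col4a3, a chain of the glomerular basement membrane, stood at 3.36, 3.26 and 3.48 in the AKR/J F1 group and 3.72, 3.63 and 3.94 in the DBA/2J F1 group. Its groups were apart, with the DBA/2J F1 arrays above (-0.40 ± 0.10, adjusted p = 0.0373). Col4a6, a chain of smooth muscle and epithelial basement membranes, had 3.62, 3.76 and 3.80 against 4.06, 4.14 and 4.16, again with the DBA/2J F1 arrays above (-0.39 ± 0.08, adjusted p = 0.0213).

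At this level the median of all genes was negative too (-0.13 in bin 2 and -0.16 in bin 3). The other probe sets differed by -0.13 ± 0.10 for Col4a3 and -0.19 ± 0.14 for Col4a6, with overlapping groups. On the mean of both probe sets Col4a3 differed by -0.26 (adjusted p = 0.0584) and Col4a6 by -0.29 (adjusted p = 0.0703). With quantile normalization the values were -0.29 for Col4a3 (adjusted p = 0.112) and -0.29 for Col4a6 (adjusted p = 0.0550). With 1 array left out the adjusted p of Col4a3 was 0.0487 to 0.104 and that of Col4a6 0.0206 to 0.0703, and each passed only without replicate 1 of the DBA/2J F1 group. Their head-to-head neighbours did not pass: Col4a4 differed by -0.07 ± 0.11 and Col4a5 by -0.04 ± 0.07, signs that turned after quantile normalization (0.04 and 0.05). Col18a1, whose protein releases endostatin, had 7.06, 7.03 and 7.13 against 6.95, 6.76 and 6.98, groups that did not overlap, and did not pass (0.17 ± 0.09, adjusted p = 0.183). Col15a1, a related chain of vessel and muscle basement membranes, differed by -0.08 ± 0.08.

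**Figure D4:**
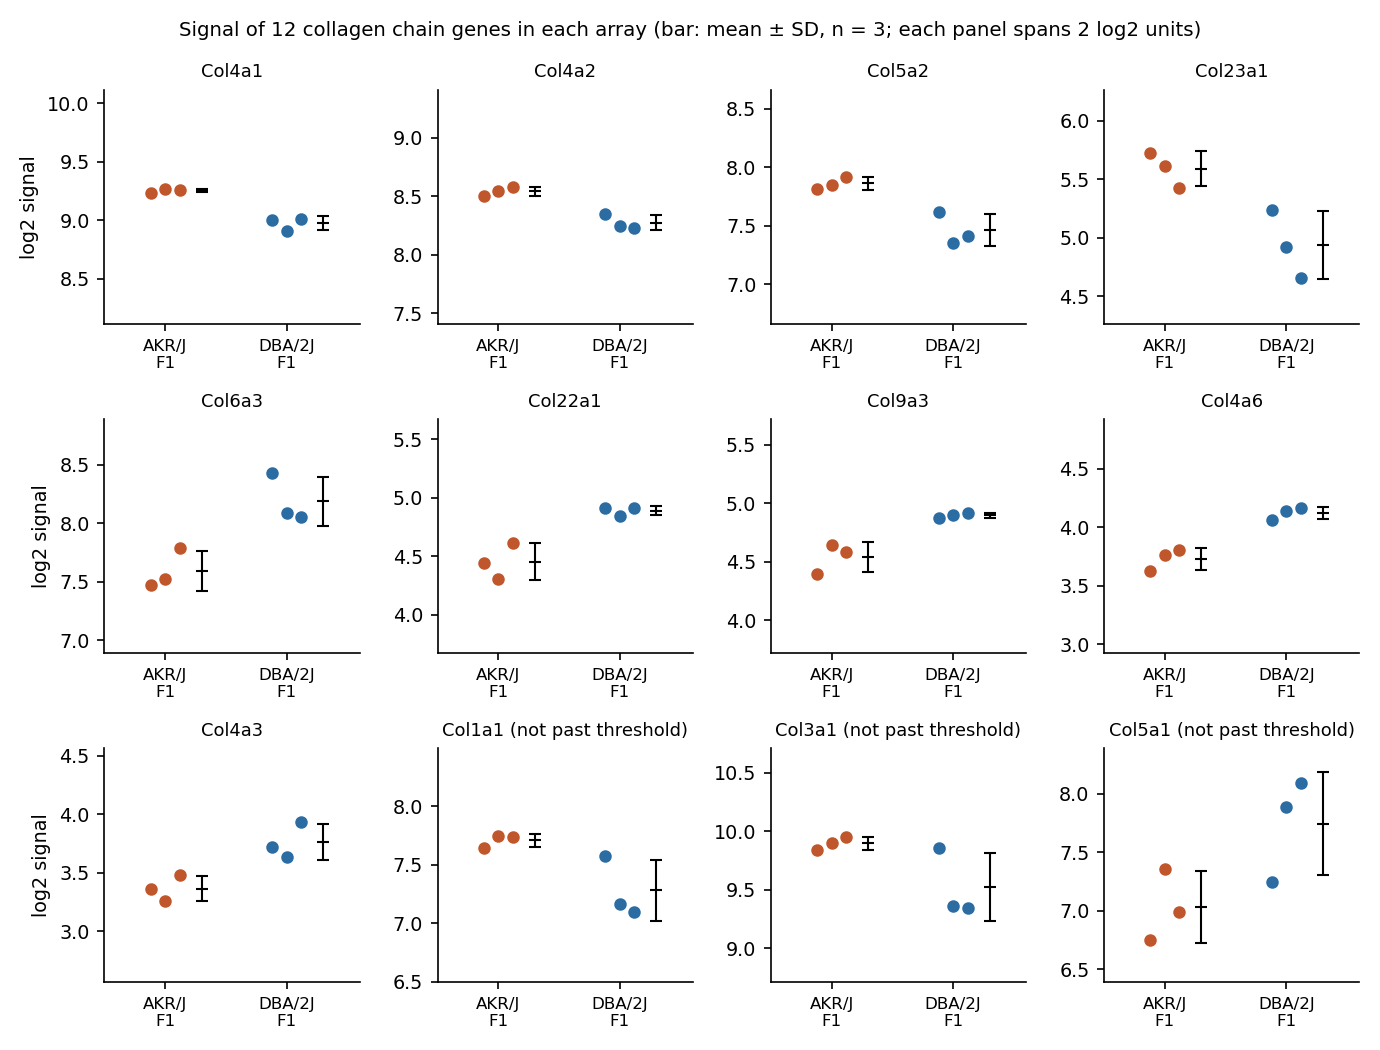
The log2 signal (vertical axis, each panel spanning 2 units) in each array of the AKR/J F1 group (orange) and the DBA/2J F1 group (blue) for the 9 chains past the threshold and for Col1a1, Col3a1 and Col5a1, with the mean ± SD of each group (n = 3) as a bar. Groups do not overlap for the 9 chains, and in Col3a1 and Col5a1 an array of one group falls inside the range of the other.

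Of the 23 other chains, 1 was higher in the AKR/J F1 group and 3 in the DBA/2J F1 group (median difference -0.12). This is 17.4% of them, beside 17.2% of all genes. Type VI collagen forms beaded microfilaments between cells and fibres, built from the products of Col6a1, Col6a2 and Col6a3. Of these, Col6a3 stood at 7.47, 7.52 and 7.79 in the AKR/J F1 group and 8.43, 8.09 and 8.05 in the DBA/2J F1 group. All DBA/2J F1 arrays lay above all AKR/J F1 arrays, for 8.19 ± 0.21 against 7.59 ± 0.17 and a 1.51-fold higher signal in the DBA/2J F1 group (-0.60 ± 0.13, adjusted p = 0.0238).

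The direction of Col6a3 is opposite to that of the median gene at its level (0.11), and the difference was -0.68 after quantile normalization (adjusted p = 0.0222). It passed without replicate 3 of the AKR/J F1 group and without replicates 1 or 3 of the DBA/2J F1 group, and not without the other 3 arrays (adjusted p 0.0303 to 0.0803). With the acinar mean as a covariate 0 chains passed in limma, with 13 at an unadjusted p under 0.05, and all genes called fell from 17.2% to 4.17%. Col6a1 and Col6a2, the neighbouring genes of the other chains, had 7.15, 7.35 and 7.32 against 7.29, 7.12 and 7.01 and 7.29, 7.42 and 7.52 against 7.65, 7.49 and 7.41. Both pairs of groups overlapped, and the differences were 0.13 ± 0.10 and -0.11 ± 0.10. Whether Col6a3 differs from them in its response was not tested. Col6a4, a chain of the same family, differed by 0.10 at a mean of 7.39, and Col6a5 was near the bottom of the range (mean 2.61, difference 0.01).

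Col23a1, which encodes a transmembrane collagen, had the largest positive difference of the 42 chains. It stood at 5.72, 5.62 and 5.43 in the AKR/J F1 group and 5.24, 4.92 and 4.66 in the DBA/2J F1 group. Its groups did not overlap, and the signal was 1.57-fold higher in the AKR/J F1 group (0.65 ± 0.15, adjusted p = 0.0279). The other Col23a1 probe sets differed by 0.37 ± 0.11 and 0.31 ± 0.11, each with groups that did not overlap, and neither passed over all probe sets (adjusted p = 0.0661 and 0.104). With quantile normalization Col23a1 kept a difference of 0.66 (adjusted p = 0.0335). When 1 array was left out its adjusted p was 0.00830 to 0.0917, under 0.05 only without replicate 1 of the DBA/2J F1 group. The other transmembrane chains Col13a1, Col17a1 and Col25a1 gave -0.15, -0.09 and -0.18, none past the threshold.

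Fibril-associated collagens sit on the surface of fibrils and link them to their surroundings. Col14a1, the brightest of them here, had 8.71, 8.73 and 8.71 in the AKR/J F1 group and 9.08, 8.71 and 8.82 in the DBA/2J F1 group, overlapping groups and a difference of -0.15 ± 0.10 (adjusted p = 0.306). Col22a1, a chain of tissue junctions such as that of muscle and tendon, was dim and stood at 4.44, 4.31 and 4.62 against 4.91, 4.85 and 4.91. The DBA/2J F1 arrays all lay above (-0.44 ± 0.09, adjusted p = 0.0238). Its other probe sets, at means near 3, differed by -0.23 and -0.01 and did not pass, and on the mean of all 3 Col22a1 differed by -0.23 (adjusted p = 0.0501).

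Col9a3, a chain of cartilage type IX collagen, had 4.39, 4.64 and 4.58 against 4.87, 4.90 and 4.92 (-0.36 ± 0.09, adjusted p = 0.0311), with its other probe sets at 0.09 and 0.11. On the mean of its 3 probe sets Col9a3 differed by -0.05 (adjusted p = 0.575), and after quantile normalization by -0.30 (adjusted p = 0.0614). Col22a1 and Col9a3 lie in bin 4 of level, where the median gene differed by -0.13. With 1 array left out the adjusted p was 0.0350 to 0.0750 for Col22a1, which passed without replicate 3 of the AKR/J F1 group or replicate 1 of the DBA/2J F1 group, and 0.0410 to 0.0884 for Col9a3, which passed only without the latter. Its partner Col9a1 differed by -0.25. The probe set of Col9a2 stood at 3.02 in 5 of the 6 arrays, a value that up to 75 probe sets of an array share, so it gives no measure of a difference. Col12a1, Col16a1, Col19a1 and Col20a1 gave -0.12, -0.01, -0.15 and -0.12 in the same comparison, none of them past the threshold.

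The last chains belong to smaller classes. Col7a1, which forms anchoring fibrils under epithelia, had 5.99, 6.06 and 6.54 against 5.85, 6.03 and 5.69, where replicate 3 of the AKR/J F1 group stood above the other 5 arrays (0.34 ± 0.15, adjusted p = 0.150). The network chains Col8a1, Col8a2 and Col10a1 differed by 0.14, -0.04 and -0.21, and Col26a1 by -0.33 at a mean of 3.03. None of the 4 passed, and the lowest adjusted p among them was 0.101, that of Col26a1.

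Most chains were read by several probe sets, which test different stretches of a transcript. Of 27 chains with more than 1 probe set, 17 had differences of 1 sign in all of them. Over all 82 probe sets of collagen chains 9 passed, 2 higher in the AKR/J F1 group and 7 in the DBA/2J F1 group, beside 10.4% of all probe sets (5.14% and 5.26% in the same order). The 7 are those of Col6a3, Col22a1, Col9a3, Col4a6 and Col4a3 used above and 2 of Col5a1, and the 2 are those of Col5a2 and Col23a1. None of the 42 probe sets used for a gene carries a suffix that marks probes shared between genes.

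Members that are neighbours in the annotation can be set side by side. The 7 such pairs of adjacent protein-coding genes were Col4a1 with Col4a2, Col4a3 with Col4a4, Col4a5 with Col4a6, Col6a1 with Col6a2, Col6a4 with Col6a5, Col9a1 with Col19a1 and Col3a1 with Col5a2. In the Col4a1 pair both genes passed. Among the other pairs, Col5a2, Col4a3 and Col4a6 passed without their neighbour. Col3a1 and Col5a2 had differences of 0.37 and 0.40, and both gave the DBA/2J F1 group its highest value in replicate 1.

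Genes that modify, process, bind and degrade collagen were read from the same fit. In 5 lists with 60 measured genes, 8 were higher in the AKR/J F1 group and 1 in the DBA/2J F1 group (15.0%, beside 17.2% of all genes), with a median difference of 0.13. Of 18 biosynthesis genes 4 were higher in the AKR/J F1 group and 0 in the DBA/2J F1 group (median 0.16). An unadjusted p under 0.05 in limma was found for 7 of the 18, all higher in the AKR/J F1 group. Of all 18193 genes, 3353 had such a p in that direction and 6587 in either direction. The 4 are Mia3 and 3 genes of prolyl 4-hydroxylase, the enzyme that lets the collagen helix hold at body temperature. These are P4ha1 and P4ha2, which encode alternative catalytic chains, and P4hb. P4ha3, which encodes another catalytic chain, was dim (mean 2.65) and did not pass (0.06 ± 0.08, adjusted p = 0.636). P4ha2 stood at 5.59, 5.70 and 5.71 in the AKR/J F1 group and 5.18, 5.09 and 5.08 in the DBA/2J F1 group (0.55 ± 0.08, adjusted p = 0.00730), and P4ha1 at 7.18, 7.20 and 7.19 against 6.69, 6.87 and 6.76 (0.41 ± 0.08, adjusted p = 0.0164). All AKR/J F1 arrays lay above all DBA/2J F1 arrays in both. P4ha2 passed under each of the 15 alternatives tried, and P4ha1 under 10. P4ha1 did not pass without any 1 of the AKR/J F1 arrays (highest adjusted p 0.0555). On the mean of its probe sets P4ha1 differed by 0.28 and did not pass either (adjusted p = 0.0538 in limma).

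P4hb, the other subunit of that enzyme and a general disulphide isomerase, differed by 0.48 ± 0.08 (adjusted p = 0.0139), and Mia3, which helps load bulky collagens for export from the endoplasmic reticulum, by 0.26 ± 0.07 (adjusted p = 0.0464). P4hb is also abundant in secretory cells, and its relation to the acinar markers given above was not tested. It stood at 10.87, 10.89 and 10.94 in the AKR/J F1 group and at 10.40, 10.54 and 10.31 in the DBA/2J F1 group. Both P4hb and the acinar markers had their lowest value in replicate 3 of the DBA/2J F1 group. Without that array P4hb still passed, and without replicate 3 of the AKR/J F1 group it did not (adjusted p = 0.0504), nor with the acinar mean as a covariate. Among the fits with 1 array left out, Mia3 passed only without replicate 1 of the DBA/2J F1 group. It did not pass with quantile normalization (0.19, adjusted p = 0.159) or on the mean of its probe sets (0.039, adjusted p = 0.748). Serpinh1, the collagen chaperone, differed by 0.25 ± 0.13 and did not pass (adjusted p = 0.186), and the lysyl hydroxylases Plod1, Plod2 and Plod3 had 0.03, 0.15 and -0.20.

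Of 10 processing and crosslinking genes, Pcolce2, an enhancer of procollagen cleavage, was higher in the AKR/J F1 group (0.55 ± 0.11, adjusted p = 0.0203). The crosslinking oxidases Lox, Loxl1, Loxl3 and Loxl4 gave -0.16, 0.28, -0.28 and -0.04, none past the threshold. Of 9 receptor genes, the collagen-binding integrin chain Itga1 (0.49 ± 0.09, adjusted p = 0.0170) and the discoidin domain receptor Ddr2, which fibrillar collagen activates (0.31 ± 0.08, adjusted p = 0.0369), were higher in the AKR/J F1 group. The share called was 10% of the processing and crosslinking list and 22.2% of the receptor list, beside 17.2% of all genes. With 1 array left out, Pcolce2 and Itga1 each passed in 3 of 6 fits (lost without replicates 1 and 3 of the AKR/J F1 group and replicate 2 of the DBA/2J F1 group) and Ddr2 in 0. Gp6, the collagen receptor of platelets, differed by -0.46 ± 0.15 and did not pass (adjusted p = 0.0681). Of 9 degradation genes 0 passed in limma and 3 had an unadjusted p under 0.05, with 8 differences positive (median 0.20), among them Mmp2 (0.20), Mmp14 (0.22) and the inhibitor Timp2 (0.27, adjusted p = 0.0501).

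Type IV collagen shares its sheet with laminins, nidogens and heparan sulphate proteoglycans. Of 14 such partners, 1 passed in each direction (14.3%, beside 17.2% of all genes). Agrn, which encodes the proteoglycan agrin, was higher in the AKR/J F1 group (0.27 ± 0.08, adjusted p = 0.0481). Hspg2, which encodes perlecan, was higher in the DBA/2J F1 group, with 7.32, 7.39 and 7.29 in the AKR/J F1 group and 7.73, 7.85 and 7.75 in the DBA/2J F1 group, groups well apart (-0.44 ± 0.08, adjusted p = 0.0130). Over the 5 lists, 13 genes passed without replicate 1 of the DBA/2J F1 group, and 2 to 7 without any single one of the other arrays. Hspg2 passed with any 1 array left out (adjusted p 0.0121 to 0.0498) and differed by -0.10 on the mean of its probe sets, where it did not pass. Agrn passed in 0 of those 6 fits, and the mean of its probe sets gave the opposite sign (-0.075).

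Markers of cells that make collagen were read from the same fit. Of 7 measured reticular fibroblast markers 4 were higher in the AKR/J F1 group (beside 8.91% of all genes), namely Lum (1.13 ± 0.13), Dcn (0.62 ± 0.14), Pdgfrb (0.54 ± 0.14) and Tcf21 (0.43 ± 0.12), with adjusted p between 0.00415 and 0.0484 in limma. Pdgfra (-0.30), Pdpn (0.07) and Cxcl13 (-0.21) did not pass. The list's array means were 8.20 to 8.41 in the AKR/J F1 group and 7.83 to 8.07 in the DBA/2J F1 group, which do not overlap. Endothelial markers had array means of 7.74 to 7.85 and 7.46 to 7.65, with Kdr and Tek (2 of 6, beside 8.91% of all genes) higher in the AKR/J F1 group. With quantile normalization Pdgfrb (adjusted p = 0.0869), Tcf21 (adjusted p = 0.0916) and Kdr (adjusted p = 0.0778) did not pass. On the mean of their probe sets Dcn (0.28, adjusted p = 0.0682) and Tcf21 (0.28, adjusted p = 0.180) did not pass. With 1 array left out Lum passed in all 6 fits, Dcn and Tek in 2, and Pdgfrb, Tcf21 and Kdr only without replicate 1 of the DBA/2J F1 group.

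Of 6 smooth muscle markers 0 passed in limma, with 1 at an unadjusted p under 0.05, and their array means overlapped (7.69 to 7.95 and 7.63 to 7.91). Adipocyte markers (4.99 to 5.83 and 4.54 to 5.25) and mesothelial markers (4.45 to 5.34 and 4.36 to 5.11) also overlapped, and 0 of 4 passed in each, with 1 and 0 at an unadjusted p under 0.05. The part of these cell types in the collagen values was not tested.

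**Figure D5:**
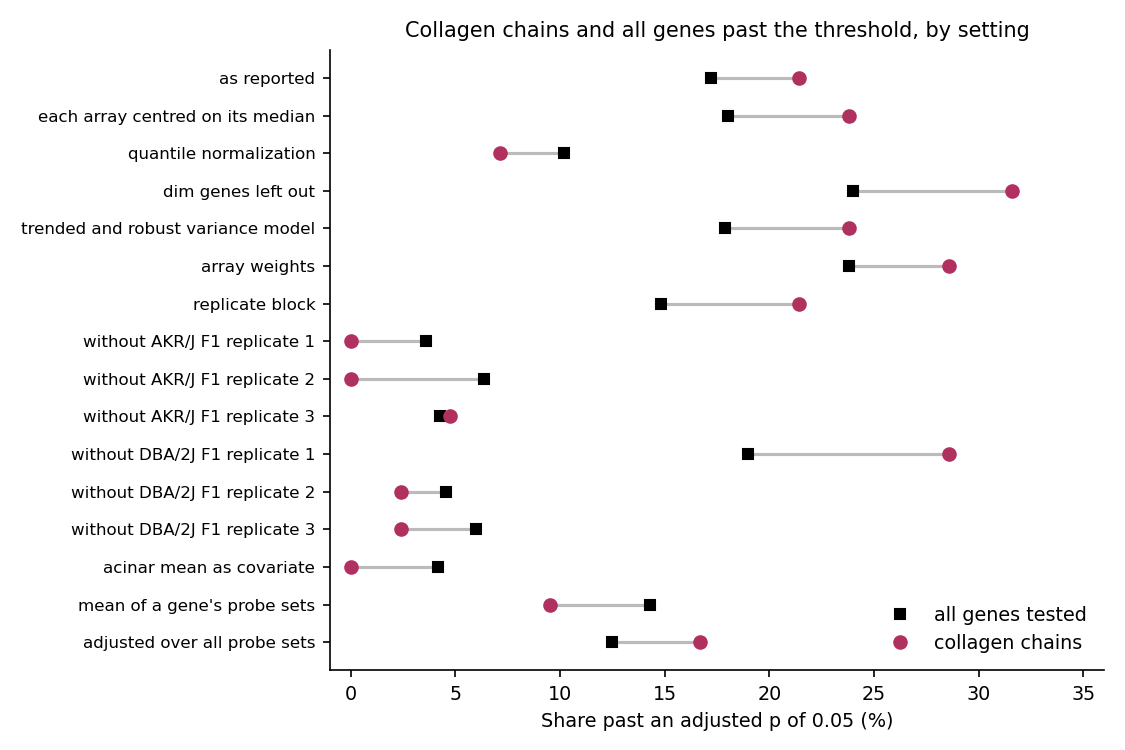
Share of collagen chains (circles) and of all genes tested (squares) past an adjusted p of 0.05 in limma (percent, horizontal axis) as reported and under each of the 15 alternative settings. The circles lie between 0 and 31.6%, and low values of the circles occur in settings where the squares are low too.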

How the data were processed

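Trizol was used to extract total RNA from 6 spleens (3 per group), and biotin to label it, per the labels' protocols. The deposited values are log2 probe set signals, brought to a common scale by the authors. RMA and MAS5 are named in the submitters' processing notes with no role or version, and the sources used here do not say which of them gave these values. RMA summaries compress differences near background, and strain variants under a probe can lower the signal.

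Of 45101 probe sets, 64 Affymetrix controls were left out. Platform annotation gave 1 symbol to 34945 of the others, several to 932 and none listed here to 9160. All 42 members matched a gene of GRCm38.p6 by identifier, with 0 symbols changed. No 2 arrays were identical (121 to 181 equal values per pair). Groups came from sample titles. Differences were tested with limma 3.58.1 (lmFit, eBayes) in R 4.3.3 on the brightest probe set of each of 18193 genes, with Benjamini-Hochberg adjustment over all genes and a threshold of 0.05. Each gene had 4 residual degrees of freedom, and an exact permutation test of 3 against 3 cannot go below p = 0.1. The procedure was tested on simulated data. Alternatives were array centring, quantile normalization, a filter at the 40th percentile of level, the acinar mean as a covariate, array weights, a trended robust variance model, each array left out, the mean over all probe sets of each gene, the replicate number as a block, and adjustment over all 45037 probe sets. Values were given for each array for members past the threshold and for the 3 brightest of each class, and further genes were named as examples. Members and lists were chosen with earlier results of these data known.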

Additional observations from a re-analysis of the deposited data

How the results depend on the processing

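None of the 9 called chains changed sign under any of the 15 alternatives in which it was measured. Of the 33 others, 15 changed sign or reached 0 under at least 1, without passing there. The chain that reached 0 was Col9a2, without replicate 1 of the AKR/J F1 group. Under at least 1 alternative 5 of the 33 passed, namely Col1a1, Col3a1, Col5a1, Col2a1 and Col26a1. Col1a1 passed under 5 of the 15 alternatives, as many as Col4a1, which is among the 9 called. The number of chains past the threshold (9 as reported, 4 higher in the AKR/J F1 group and 5 in the DBA/2J F1 group) was 3 (1 and 2; 10.2% of all genes passed there, against 17.2% as reported) with quantile normalization, 4 (3 and 1; 14.3%) on the mean over all probe sets of each gene, and 0 (0 and 0; 4.17%) with the acinar covariate. It was 7 (2 and 5; 12.5%) when adjusted over all probe sets, and 6 (5 and 1; 24% of genes) with dim genes left out, a setting that tested 19 chains. With 1 array left out it ranged from 0 to 12 (0 to 6 and 0 to 6, with 3.57% to 19.0% of all genes), and where it was 0 in limma, 13 chains had an unadjusted p under 0.05 in each such fit, as with the acinar covariate. The replicate number as a block gave 9 (2 and 7, with 14.8% of all genes), though not the same 9 chains. Col4a1 and Col4a2 did not pass in that fit, and Col5a1 and Col2a1 did. Same-numbered arrays correlated at 0.17, 0.13 and -0.01 in their deviations from the group means. Replicates 1 and 2 of the AKR/J F1 group correlated best with their own number, and replicate 3 did not. So few correlations cannot show whether same-numbered arrays share more than a number. Pathway genes (9, 8 and 1) numbered 6 (5 and 1) with quantile normalization, 15 (13 and 2) with array weights, 6 (5 and 1) with the block, 4 (2 and 2) with the acinar covariate and 6 (5 and 1) when adjusted over all probe sets, and 2 to 13 (1 to 12 and 1 to 2) with 1 array left out. Collagen probe sets (9, 2 and 7) numbered 8 (4 and 4) after centring, 5 (2 and 3) with quantile normalization, 9 (4 and 5) without dim probe sets, 10 (4 and 6) with the trended variance model, 14 (6 and 8) with array weights and 0 (0 and 0) with the acinar covariate, where 19 had an unadjusted p under 0.05, and 0 to 9 (0 to 4 and 0 to 5) with 1 array left out. Of all genes called, 51.7% were higher in the AKR/J F1 group as reported, 61.9% after centring, 41.2% after quantile normalization and 66.9% with dim genes left out. On the mean of its probe sets Agrn differed by -0.075. The cause of these changes was not tested, beyond the fewer arrays or genes that some settings use.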
